A study of Sus scrofa with 6 samples.

Results

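The genes that cut, protect and crosslink the extracellular matrix of the endometrium, the inner lining of the uterus, were followed in 6 pregnant sows (Sus scrofa) of the Chinese breed Erhualian. They were 41 listed genes: matrix metalloproteases (MMPs), ADAMTS and ADAM proteases, tissue inhibitors of metalloproteases (TIMPs), the plasminogen system, lysyl oxidases and cathepsins. Of these, 36 were matched by symbol to a row of the deposited table, out of 14262 genes in all. MMP3, MMP12, MMP13, TIMP2 and CTSK matched no row and are not analysed here. All 6 sows were on day 12 of gestation, and 3 were labelled high prolific and 3 low prolific, with no treatment named and 1 library per sow. The label number follows the group in each sow's name. High 1 and low 3 had parity 5 (litters borne so far), low 1 and low 2 parity 7, and high 2 and high 3 parity 8. The groups thus differ in parity as well, and 3 sows per group limit what any test can show. RNA came from whole endometrium, in which fewer cells of a type and less RNA per cell cannot be told apart.

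MMPs are zinc enzymes that are made as inactive precursors and, once active, cleave collagens and other matrix proteins. TIMPs bind and block the active enzymes. ADAMTS enzymes cut proteoglycans such as versican and trim procollagens, while plasminogen activators turn plasminogen into plasmin, which cleaves fibrin and activates other proteases. Lysyl oxidases work in the other direction and join collagen and elastin chains into stable fibres. In the pig the conceptus attaches to the uterine epithelium without invading it.

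Values are normalized read counts as the authors deposited them. The columns summed to between 22663087 and 24270245, sums that the normalization sets, so the sequencing depth behind each value is unknown. Low 2 and low 3 stood apart from the other 4 sows on the first principal component of all genes (-0.53 and -0.54, against 0.02 to 0.50), which held 43.6% of the variance. Results are therefore also given without those 2 sows; low 1 is then the only low prolific sow, so such values rest on it and have no spread within their group. Markers of stromal fibroblasts summed to between 507947 and 692882 in high and between 601230 and 813388 in low prolific sows, and epithelial markers to between 70399 and 74353 and between 57496 and 83010. Endothelial markers summed to 8390 to 12989 against 10991 to 20161, smooth muscle markers to 21666 to 28506 against 21901 to 31160, and macrophage markers to 7155 to 9784 against 7613 to 11100. Red blood cell markers summed to 624 to 2523 against 1691 to 7972. Of 10 markers of the conceptus trophectoderm, 5 were matched and summed to 801 to 964 against 787 to 1296, while CYP17A1, CYP19A1, HAND1, CDX2 and IFNG matched no row. None of the matched markers stood at 0 in any sow, and the part of these cell types in the results was not tested unless stated. Within these sums most single markers lay lower in high prolific sows, by sign 7 of 8 stromal, 5 of 5 endothelial, 6 of 7 smooth muscle, 7 of 10 macrophage, 5 of 5 trophectoderm and 3 of 8 epithelial ones. HSD17B1, the most abundant of the matched trophectoderm markers, counts as lower by sign only and was level (log2 fold change -6.6e-05). MYH11, the most abundant of the smooth muscle markers, was the 1 that lay higher, and ACTG2 was 4.16-fold and ACTA2 1.97-fold lower with groups that did not overlap. The endothelial marker PECAM1 was lower in all high prolific sows as well (log2 fold change -0.90 ± 0.19, SE).

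Most of these genes lay lower in the high prolific sows. By the sign of the log2 fold change, 30 of the 36 were lower and 6 higher (83.3% lower, against 50.4% of all genes), with a median log2 fold change of -0.17 against 0.00 over all genes. The list was drawn up with earlier results of these data known. The shares given here thus describe these genes and are no test of the list. The log2 fold change is high minus low prolific on the scale of log2(value + 1), from limma. Markers of stroma, endothelium and smooth muscle lay lower alongside them, as given above, and their part in this count was not tested. No gene passed on its own: limma called 0 of the 36 at an adjusted p under 0.05, as it did of all 14262 genes (0% called), and the adjusted p of the 36 ran from 0.619 to 0.998. At an unadjusted p under 0.05 stood 7 of the 36 (19.4%), against 7.92% of all genes, and all 7 were lower in high prolific sows. Of all genes, 4.09% stood under that p on the lower side and 3.83% on the higher side. In 7 genes the 3 high prolific sows lay wholly below the 3 low prolific sows (19.4%, against 6.32% of all genes), and in 0 wholly above (7.18% of all genes). For either direction, 13.5% of all genes had groups that did not overlap.

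These counts changed when single sows were left out. Without low 2, 2 of the 36 stood at an unadjusted p under 0.05, ADAMTS20 and MMP1 (4.43% of all genes), and without high 2 there were 3, ADAMTS20, MMP1 and SERPINB2 (3.27% of all genes). Leaving out low 3 gave 5 (9.67% of all genes). Without low 2 and low 3, 23 of the 36 were lower than in low 1 alone. If low 1 is assumed to vary as the high prolific sows do, 2 of the 36 and 4.42% of all genes stood at that p, counts that carry no spread between low prolific sows. The median log2 fold change was -0.10 without low 2 and low 3, -0.09 without low 3 and -0.32 without high 1. The highest of the 6 sows was low 2 or low 3 in 23 of the 36 genes (63.9%, against 43.0% of all genes). High 2 was the lowest sow in 11 of the 36, and in 16.2% of all genes.

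ADAMTS20, a secreted protease of the proteoglycan-cutting ADAMTS group that is best known from the migration of pigment cells, had the widest spread. This gene (ENSSSCG00000000795) was at 109, 25.2 and 49.8 in the high prolific sows 1 to 3 and at 236, 9336 and 1217 in the low prolific sows 1 to 3. All 3 low prolific sows lay above all 3 high prolific sows, but low 2 was far above the rest of its own group. Its highest sow was 370-fold above its lowest, a spread wider than that of 99.9% of all genes. The log2 fold change was -4.72 ± 1.31 (SE), or 26.4-fold lower in high prolific sows, with a limma adjusted p of 0.619. Leaving out low 2 gave -3.35, leaving out low 1 gave -6.00, and with neither low 2 nor low 3 it was -2.17, so the size depended on single sows. Leaving out sows could not turn the direction, since the groups did not overlap.

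**Figure D1:**
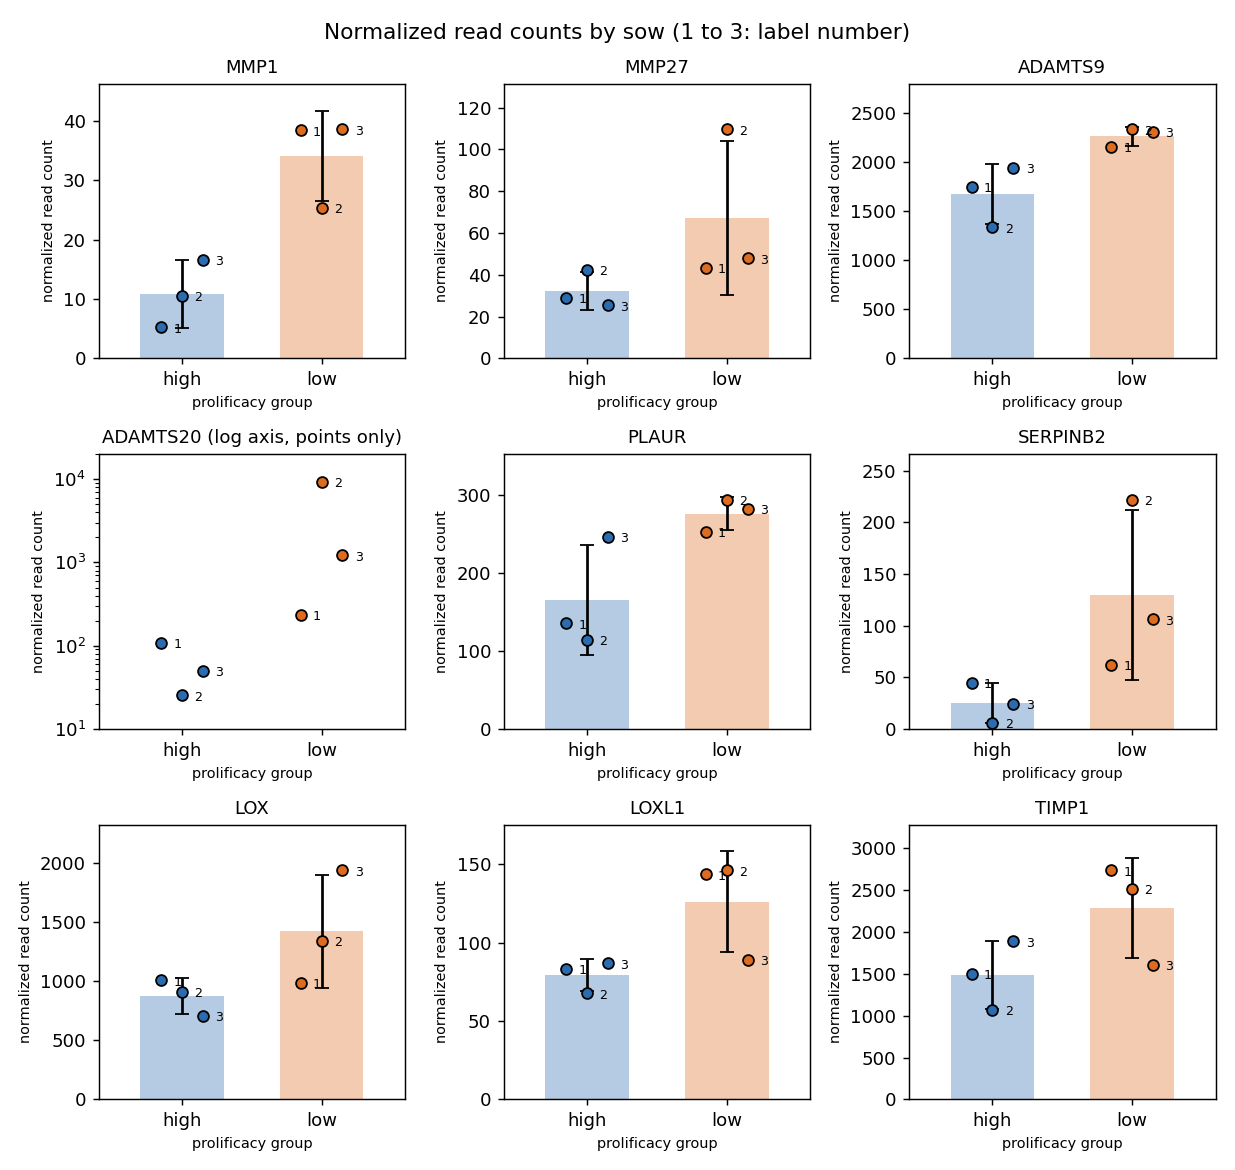
Normalized read counts of 9 genes by group, with blue for high and orange for low prolific sows; each point is 1 sow with its label number, bars are means of 3 sows and error bars SD on linear axes from 0, and ADAMTS20 is drawn as points on a log axis. In every panel but LOX and TIMP1 the 3 high prolific sows lie below the 3 low prolific sows, narrowly so for MMP27 (42.5 in high 2, 43.5 in low 1), PLAUR (246 in high 3, 252 in low 1) and LOXL1 (86.9 in high 3, 89.0 in low 3).

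Of the other ADAMTS genes, ADAMTS9, which cleaves versican, separated the groups, with little spread in the low prolific group only. It (ENSSSCG00000011496) was at 1752, 1336 and 1942 in high 1 to high 3 and at 2155, 2334 and 2310 in low 1 to low 3. The 3 low prolific sows lay close together, and the high prolific sows all lay below them, with means of 1677 ± 310 and 2267 ± 97.2 (SD, n = 3). Its log2 fold change was -0.45 ± 0.15 (SE, limma adjusted p = 0.619), -0.30 without high 2 and -0.38 without low 2 and low 3. ADAMTS2, the protease that trims the amino end of procollagens, was at 1849, 1097 and 1320 against 1571, 2661 and 2045, so that high 1 overlapped the low prolific sows (log2 fold change -0.56 ± 0.26, SE). It was -0.37 without low 2 and -0.18 without low 2 and low 3. ADAMTS1, ADAMTS4 and ADAMTS5, proteases of versican and aggrecan, and ADAMTS12 overlapped between the groups, with log2 fold changes between -0.17 and 0.13. ADAMTS4 turned to 0.44 without high 2, where it was lowest at 225, and ADAMTS5 was 0.71 without low 2 and low 3. In all, 6 of 7 ADAMTS genes lay lower.

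MMP1, the interstitial collagenase, had the smallest unadjusted p of the MMPs and groups that did not overlap. This gene (ENSSSCG00000014985) was at 5.26, 10.6 and 16.6 in high 1 to high 3 and at 38.4, 25.4 and 38.6 in low 1 to low 3. All high prolific sows lay below all low prolific sows, at 10.8 ± 5.70 against 34.1 ± 7.56 (SD, n = 3), in a gene with low values. No gene of the deposited table had a mean under 17.6. MMP1 lay below that level in high and above it in low prolific sows. Its row, and thus this direction, may therefore rest on the low prolific group. On the log2 scale the difference was -1.67 ± 0.46 (SE), or 3.18-fold lower (limma adjusted p = 0.619), and over each sow left out it ran from -2.02 to -1.27. With 10 in place of 1 added to each value it was -1.11. Without low 2 and low 3 it was -1.86, a value that rests on low 1 alone (38.4, close to the highest value of 38.6 in low 3). MMP27, a little-studied MMP, was at 29.1, 42.5 and 25.4 against 43.5, 110 and 48.0, separated by about 1 normalized read between high 2 and low 1. The log2 fold change of MMP27 was -0.93 ± 0.42 (SE), and -0.52 without low 2, the sow that stood highest.

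MMP8, the collagenase stored in neutrophil granules, varied widely from sow to sow within both groups. It was at 4278, 168 and 8703 in high 1 to high 3 and at 11244, 10304 and 1706 in low 1 to low 3. High 2 and low 3 were the lowest and low 1 and low 2 the highest, so the groups overlapped over a 66.9-fold range. A log2 fold change of -1.66 ± 1.56 (SE) turned to 0.07 without high 2 and was -2.78 without high 3, so a group difference could not be settled. Of 12 neutrophil markers 3 matched a row, and they did not follow MMP8. S100A8, a calcium-binding protein abundant in neutrophils, was at 713, 2.22 and 113 against 85.2, 5414 and 10857, so low 1 had the highest MMP8 with little S100A8 and low 3 the reverse. S100A12 was likewise highest in low 2 and low 3, at 7533 and 5283. CSF3R, the receptor for the neutrophil growth factor, was highest in high 1 (385) and lowest in low 2 (44.3). The 3 together summed to 422 in low 1 and 16338 in low 3, a difference that came from S100A8 and S100A12. CSF3R was at 168 in low 1 and 199 in low 3. The 3 markers thus did not share an order of sows, and neutrophil content was not tested.

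**Figure D2:**
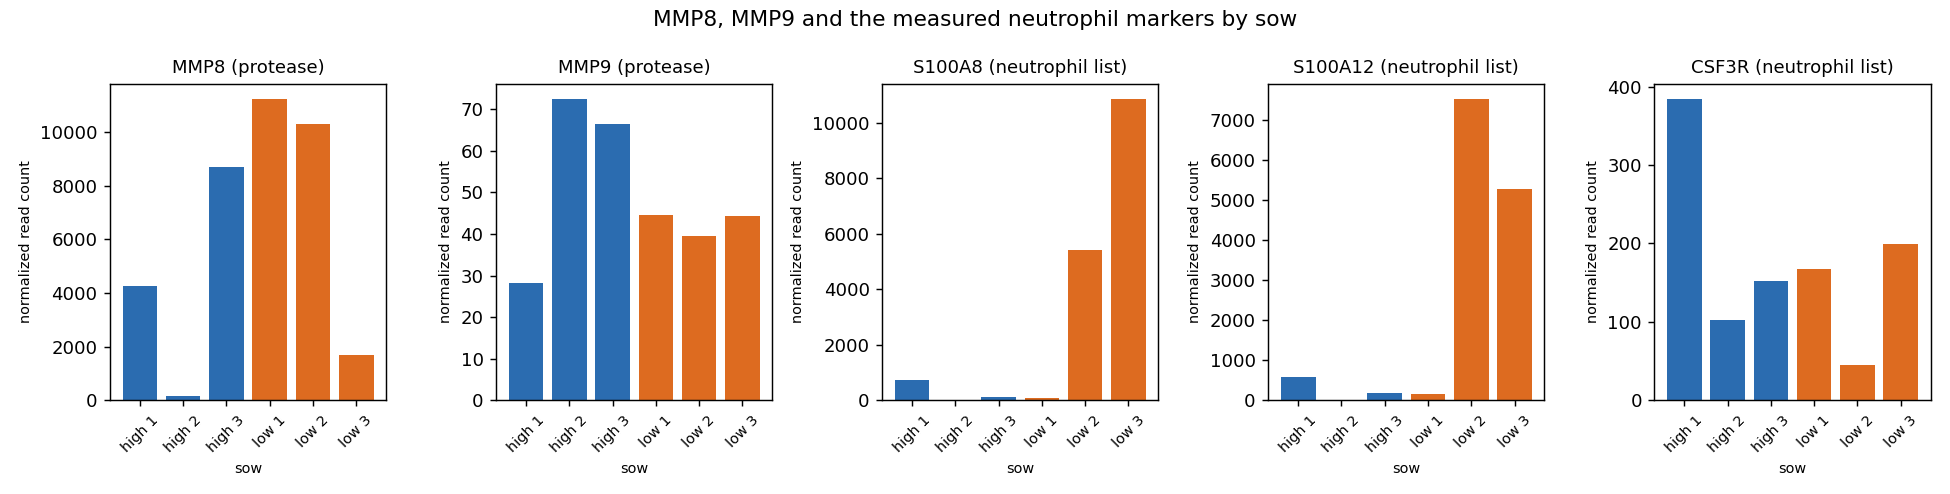
Normalized read counts (linear axes from 0) of MMP8, MMP9 and the 3 matched neutrophil markers, 1 bar per sow, blue for high and orange for low prolific. MMP8 was highest in low 1 (11244), where S100A8 was 85.2, and was 1706 in low 3, where S100A8 reached 10857.

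The gelatinases, which cut denatured collagen and basement membrane collagen, overlapped between the groups. MMP2 was at 32579, 21252 and 21445 against 20117, 24523 and 38047, highest in high 1 and low 3, the 2 sows of parity 5. MMP9 was at 28.2, 72.5 and 66.4 against 44.6, 39.6 and 44.4, with the low prolific sows between the extremes of the high prolific ones. Their log2 fold changes were -0.11 ± 0.29 and 0.26 ± 0.39 (SE), and that of MMP9 was 0.69 without high 1 and 0.02 without high 2. MMP28, an MMP of epithelia, was at 374, 307 and 117 against 283, 456 and 721, a log2 fold change of -0.93 ± 0.52 (SE) that was -0.42 without high 3 and -0.25 without low 2 and low 3. MMP7 (matrilysin), MMP11 (stromelysin 3) and MMP19 lay between -0.12 and -0.02, all with overlap. Of the 9 secreted MMPs matched, 8 lay lower.

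In the RefSeq gene order of the pig (assembly Sscrofa11.1), MMP7, MMP20, MMP27, MMP8, MMP1, MMP3, MMP12 and MMP13 stand next to each other as protein-coding genes. The members measured in this cluster did not share an order of sows: MMP7 was highest in low 3, MMP27 in low 2, MMP8 in low 1 and MMP1 in low 3. MMP1 and MMP27 kept the groups apart, while the gene that stands between them, MMP8, did not.

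Of the 5 membrane-bound MMPs 3 lay lower and 2 higher, and in none were the groups apart. MMP14, which activates the MMP2 precursor at the cell surface, was between 9452 and 11667 in high and between 10345 and 13489 in low prolific sows (log2 fold change -0.17 ± 0.15, SE). MMP15 had the highest log2 fold change of the 36 genes, 0.36 ± 0.17 (SE), at 964, 1453 and 1128 against 932, 976 and 827. High 1 overlapped low 2, the limma adjusted p was 0.654, and without high 2 the log2 fold change was 0.20. MMP23B was at 586, 561 and 460 against 560, 708 and 648 (log2 fold change -0.25 ± 0.15, SE, and -0.07 without low 2 and low 3), again with overlap. MMP16 and MMP24 were at -0.06 and 0.13. The 3 ADAM genes, membrane proteases that shed surface proteins, all lay slightly lower. ADAM19 was at 213, 185 and 167 against 175, 218 and 361 and ADAM12 at 1478, 1411 and 1308 against 1287, 1573 and 1851, and both turned, to 0.10 and 0.12, without low 2 and low 3. ADAM8 was at -0.20 ± 0.25 (SE).

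All 3 measured TIMPs lay lower in high prolific sows by sign, as most proteases did, with overlap in each. TIMP1, a soluble inhibitor of most MMPs, was at 1497, 1071 and 1889 in high 1 to high 3 and at 2733, 2513 and 1607 in low 1 to low 3. Only high 3 lay above low 3, and the other 2 high prolific sows were below every low prolific sow. The log2 fold change was -0.62 ± 0.28 (SE, limma adjusted p = 0.634), -0.40 without high 2 and -0.92 without low 2 and low 3. TIMP3, which binds to the matrix and also blocks ADAMTS4 and ADAMTS5, reached 44539 in high 3 and lay between 10571 and 25575 in the other 5 sows. Its log2 fold change of -0.18 ± 0.58 (SE) turned to 0.19 without high 1 and was -0.85 without high 3. TIMP4 was at 392, 309 and 265 against 409, 276 and 407, with overlap (log2 fold change -0.17 ± 0.23, SE).

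In the plasminogen system the receptor PLAUR and the inhibitor SERPINB2 lay lower in all high prolific sows, while both activators overlapped between the groups. PLAUR, the cell surface receptor of urokinase (ENSSSCG00000032434), was at 135, 114 and 246 in high 1 to high 3 and at 252, 294 and 282 in low 1 to low 3. The low prolific sows lay close together, and high 3 came near them. Means were 165 ± 70.8 and 276 ± 21.2 (SD, n = 3), a log2 fold change of -0.81 ± 0.30 (SE, limma adjusted p = 0.620) that was -0.69 without low 2 and low 3. SERPINB2, plasminogen activator inhibitor 2 (ENSSSCG00000004890), was at 44.6, 5.85 and 24.4 against 62.1, 222 and 106. The groups did not overlap, and low 2 was highest as in ADAMTS20. High minus low was -2.52 ± 0.79 (SE) on the log2 scale, or 5.74-fold lower (limma adjusted p = 0.619), and -1.66 without low 2 and low 3 and -1.75 without high 2.

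Both activators were highest in high 3 and low 3 and overlapped between the groups. PLAU, urokinase, was at 605, 572 and 1011 against 434, 616 and 811, and PLAT, the tissue activator, at 858, 743 and 1328 against 742, 971 and 1301. SERPINE2, an inhibitor of thrombin and urokinase, was at 180, 86.2 and 140 against 73.7, 122 and 277. Its log2 fold change of -0.07 ± 0.52 (SE) was 0.80 without low 2 and low 3.

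In 8 pairs, a protease, or in 1 pair the crosslinker LOX, was also compared with its inhibitor or partner within each sow. The measure was the log2 ratio of the 2 values after adding 1 to each. The ratio of PLAU to PLAUR was the only 1 of the 8 whose groups did not overlap, beside 13.5% of single genes over the whole table. On the log2 scale it was 2.15, 2.31 and 2.03 in high 1 to high 3 and 0.78, 1.07 and 1.52 in low 1 to low 3. The high prolific sows lay within a narrow band above all low prolific sows, by 1.04 on the log2 scale or 2.06-fold. The exact two-sided permutation p was 0.1, the smallest that 20 assignments of 3 against 3 can give, and 0.533 after Benjamini-Hochberg adjustment over the 8 pairs. PLAUR alone kept the groups apart as well (log2 fold change -0.81, against 0.23 for PLAU), so this ratio is not a result separate from PLAUR. MMP1 relative to TIMP1 was lower in high prolific sows by a mean of -1.05 and MMP9 relative to TIMP1 higher by 0.88, both with overlap (exact permutation p = 0.2 each). The first was -0.63 without high 1 and -0.49 with 10 in place of the added 1, and the second 1.33 without high 1 and 0.42 without high 2. ADAMTS4 and ADAMTS5 relative to TIMP3 differed by 0.01 and 0.13, PLAU and PLAT relative to SERPINE2 by 0.30 and 0.02, and LOX relative to the collagen gene COL1A1 by -0.25, which was -0.0026 without low 3. In these 5 pairs the exact permutation p lay between 0.5 and 1. These are ratios of normalized reads, not of molecules.

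**Figure D3:**
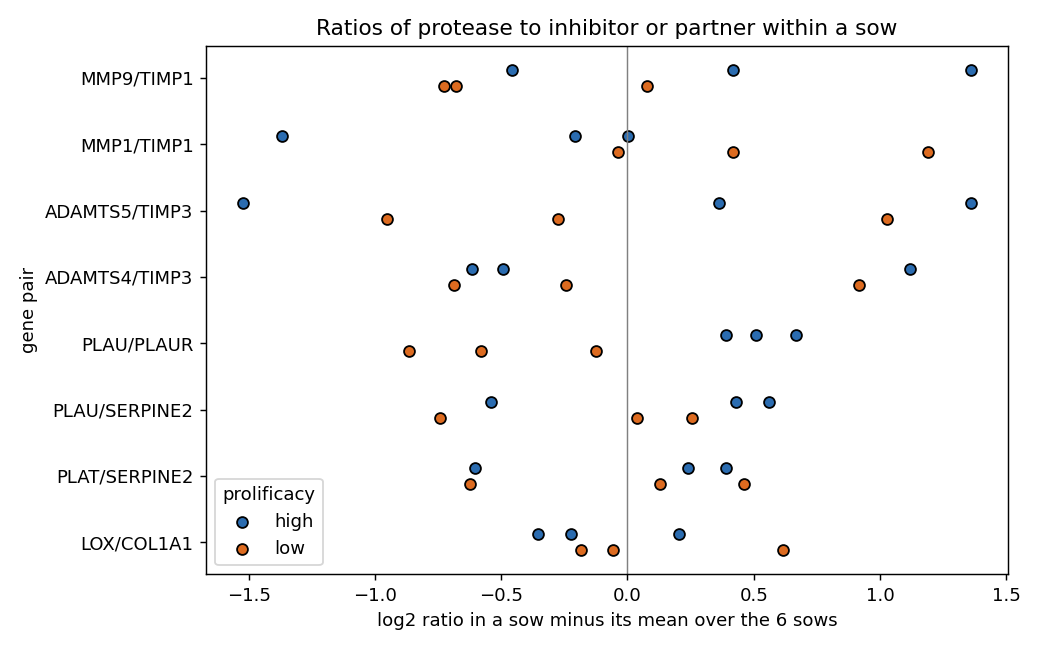
Log2 ratio of 2 genes in each sow, minus the mean of that ratio over the 6 sows (x axis), for 8 gene pairs (y axis), with 1 point per sow, blue for high and orange for low prolific. The 3 points of each group lie apart for PLAU/PLAUR (group means 2.17 and 1.12 before centring) and are mixed in the other 7 pairs.

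Lysyl oxidases lay lower in all 3 measured genes, with a median log2 fold change of -0.64. LOX, which starts the crosslinking of collagen and elastin (ENSSSCG00000014232), was at 1007, 911 and 705 in high 1 to high 3 and at 985, 1341 and 1934 in low 1 to low 3. High 1 and low 1 overlapped, and low 2 and low 3 stood above the rest. Its log2 fold change of -0.66 ± 0.27 (SE, limma adjusted p = 0.629) was -0.41 without low 3 and -0.19 without both. LOXL1, which acts on elastic fibres (ENSSSCG00000001914), was at 83.2, 67.8 and 86.9 against 144, 146 and 89.0. Here low 1 and low 2 were high and low 3 was near the high prolific sows. This gave a log2 fold change of -0.64 ± 0.26 (SE, limma adjusted p = 0.629), and -0.86 without low 2 and low 3. LOXL2, which crosslinks basement membrane collagen, was at 1956, 962 and 1333 against 1720, 2281 and 739, with the lowest value in low 3 and a log2 fold change of -0.07 ± 0.46 (SE) that turned to 0.27 without low 2. The 1 cathepsin matched, CTSS, a lysosomal protease of antigen-presenting cells, was level, at 2381, 3085 and 2545 against 2864, 2441 and 2663 (log2 fold change 0.00 ± 0.13, SE).

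**Figure D4:**
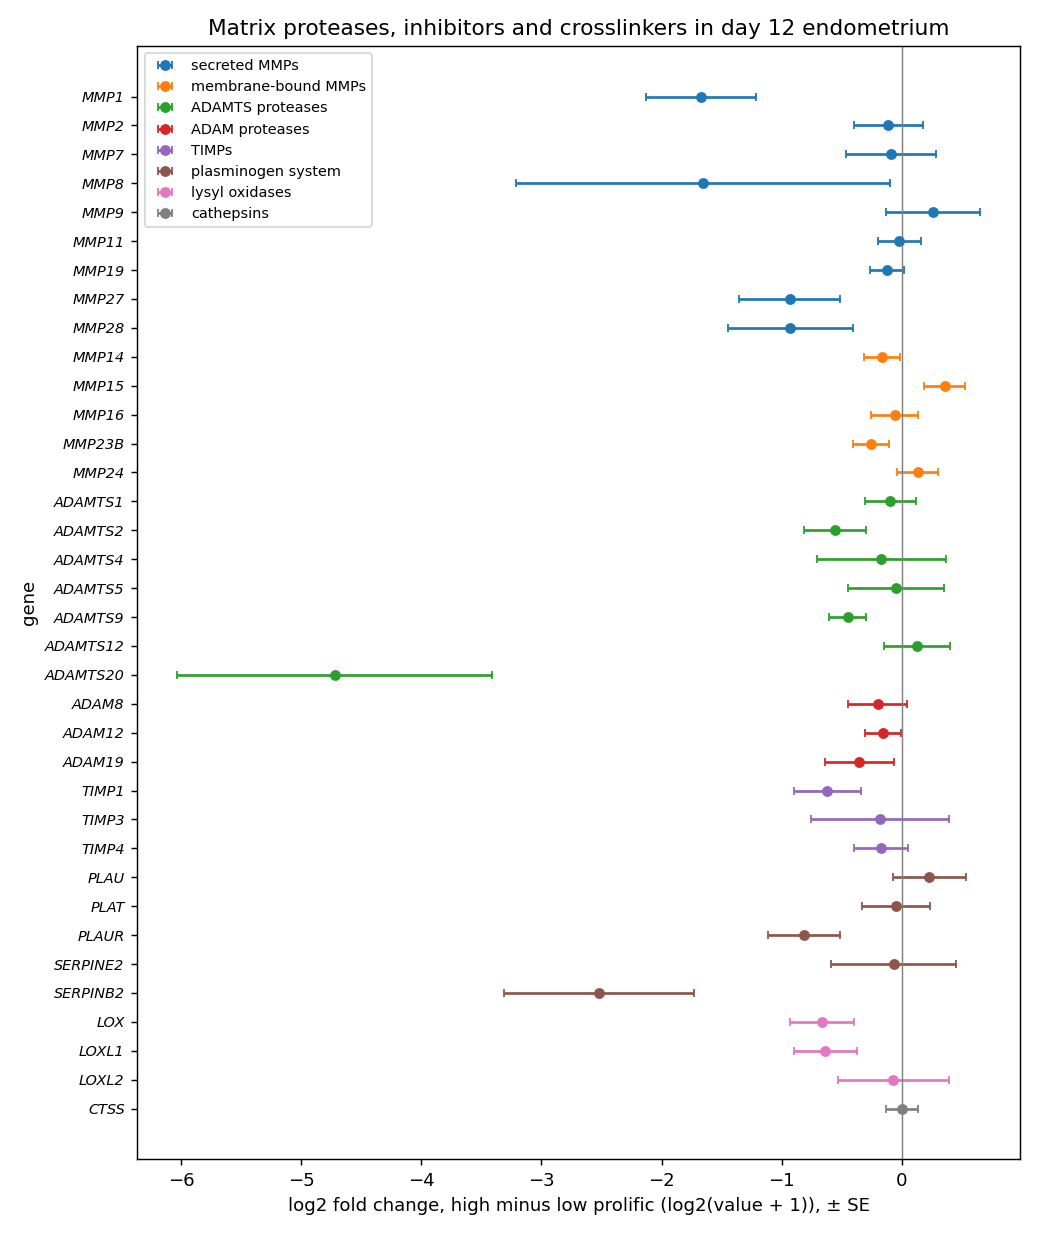
Log2 fold change (x axis, high minus low prolific on the log2(value + 1) scale, ± SE from limma) of the 36 genes (y axis), coloured by family. Most points lie left of 0 (30 of 36), with ADAMTS20 at -4.72, SERPINB2 at -2.52 and MMP1 at -1.67 farthest out, and MMP15 at 0.36 on the right.

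Parity was compared as well. The 2 sows of parity 5, high 1 and low 3, were both highest in MMP2, MMP7, ADAMTS5 and SERPINE2 (4 of 36, 11.1%, against 11.1% of all genes) and both lowest in MMP11 and ADAMTS12 (2 of 36, 5.56%, against 10.6% of all genes). With parity as a covariate, MMP1 was at -1.82, ADAMTS20 at -4.51, SERPINB2 at -2.26 and PLAUR at -0.86. LOX was then at -0.53 and LOXL1 at -0.69. The median log2 fold change of the 36 genes was -0.11 with the covariate and -0.17 without it, and 28 against 30 of them lay lower.

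**Figure D5:**
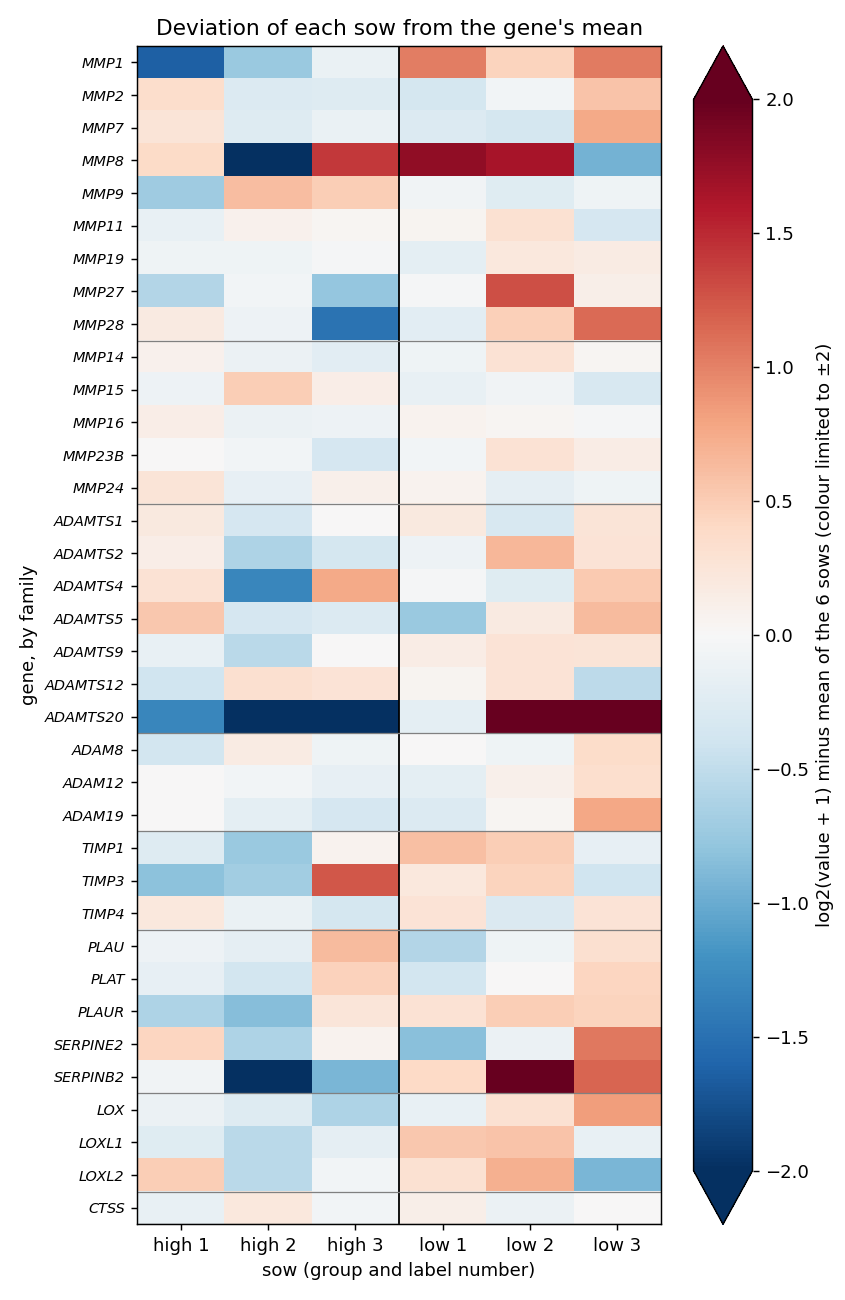
Log2(value + 1) of each gene (rows, by family) in each sow (columns) minus the gene's mean over the 6 sows, with red above and blue below the mean and the colour limited to ±2. Blue prevails in high 2, where 11 of the 36 genes were lowest (16.2% of all genes), and red in low 2 and low 3, where 23 were highest (43.0% of all genes), while MMP8 varies within both groups.

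Of 106 further genes of matrix proteolysis, also listed with earlier results of these data known, 87 were matched. Their shares are likewise descriptive and no separate test. Of the 87, 61 lay lower and 26 higher in high prolific sows (70.1% lower), with a median log2 fold change of -0.21. At an unadjusted p under 0.05 stood 11 (12.6%, against the 7.92% of all genes), 10 lower and 1 higher, and limma called 0 at an adjusted p under 0.05. By group, 20 of 28 other metalloproteases and ADAMTS-like genes, 11 of 14 serine proteases, 8 of 11 cathepsins and 14 of 16 crosslinking and collagen-processing genes lay lower. Among other inhibitors and regulators 8 of 18 lay lower and 10 higher.

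LOXL4, a further lysyl oxidase with low values, was at 16.6, 3.33 and 9.77 in high 1 to high 3 against 31.0, 58.1 and 45.5. All high lay below all low prolific sows (log2 fold change -2.25 ± 0.57, SE). Its means were 9.88 and 44.9, and no gene of the deposited table had a mean under 17.6. As for MMP1, its row and this direction may therefore rest on the low prolific group. HTRA3, a secreted serine protease of uterus and placenta, was at 137, 51.6 and 294 against 461, 442 and 681 (-2.01 ± 0.60). ADAM17, the protease that sheds tumour necrosis factor, was at 1251, 1004 and 1205 against 1364, 2442 and 1890 (-0.68 ± 0.22), and its log2 fold change was -0.25 without low 2 and low 3. SPOCK1, a matrix proteoglycan, was at 29.1, 29.0 and 40.1 against 56.0, 138 and 75.2 (-1.34 ± 0.38), or -0.77 without low 2 and low 3. SERPINF1, a secreted antiangiogenic serpin, was at 3022, 1943 and 2080 against 3676, 3769 and 3862 (-0.71 ± 0.18), with the low prolific sows close together. The other 6 were ADAMTS6 (0.63), ADAMTSL2 (-0.85), ADAMTSL5 (-0.78), ADAM15 (-0.27), PRSS23 (-0.59) and CTSH (-0.70), as log2 fold changes; without low 2 and low 3 ADAMTSL2 was -0.45 and PRSS23 -0.33. The limma adjusted p of the 11 lay between 0.619 and 0.624.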

How the data were processed

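Endometrial RNA of 3 high and 3 low prolific sows was sequenced, and the authors deposited a table of normalized read counts, a signal with decimals and no value below 0. Per the submitters' processing notes, Subread 1.6, featureCounts and edgeR were used; their settings, the genome build, the annotation, the strand setting and the kind of normalization were not given in the sources used here. Whole reads could not be recovered, so no count model was run. Symbols came from a table of Ensembl identifiers and matched 11977 of 14262 rows. After taking log2(value + 1), every row was fitted in limma 3.58.1 (R 4.3.3) with variance trend and robust moderation and tested two-sided. The Benjamini-Hochberg adjustment ran over all 14262 genes, with a threshold of 0.05. The scale understates changes of low genes. Ratios of 2 genes were tested by exact permutation (scipy 1.17.1). The procedure was tested on simulated data in which genes varied independently, without the shared pattern of low 2 and low 3. The limma p-values set the group difference against the spread between these sows.

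Members and lists were chosen with earlier results of these data known. Values by sow are printed for members at an unadjusted p under 0.05, without overlap, with 1 of the 2 smallest p of a family or with a highest sow over 10 times the lowest; others printed by sow, and the details of the neutrophil markers, were chosen after their values were seen. Reads of near-identical or overlapping genes may have been split in the counting. Promoter and protein motifs were not examined. Of 11 planned ratios, 3 needed TIMP2 or CTSK and were not run. Results on 2 further genes of the lists are not reported here.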

Additional observations from a re-analysis of the deposited data

How the results depend on the processing

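Over 17 alternatives limma called 0 of the 36 genes at an adjusted p under 0.05, with a lowest adjusted p of 0.161. Of the 36, 16 kept their direction in each alternative that could test them, among them the 7 whose groups did not overlap. For those 7 most alternatives could not turn the sign, since leaving out sows or changing the added value keeps such groups apart. Keeping genes with means of 50 or more left out 4 of the 36, MMP1 and MMP27 among them, and testing without any filter equals the reported fit. With each sow left out in turn, the number of all genes called ran from 0 to 4 (4 without low 1, 1 without low 2), those at an unadjusted p under 0.05 from 466 to 1872, the 36 genes at that p from 2 to 7, those lower from 22 to 30, and the median log2 fold change from -0.32 to -0.093. Without both low 2 and low 3 the low prolific group is low 1 alone, which the fit assumes to vary as the 3 high prolific sows do; 631 of all genes and 2 of the 36 then stood at an unadjusted p under 0.05, counts that say nothing about the spread between low prolific sows. A pairing of the sows by their shared label numbers was not seen. The deviations of same-numbered sows correlated at -0.38, -0.16 and -0.36, and 0 of 6 sows correlated best with their own number. In each group of 3 the deviations sum to 0, so these correlations depend on each other and cannot settle a pairing. With the replicate block 615 of all genes and 6 of the 36 stood at an unadjusted p under 0.05 in limma.

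The other 20 genes turned in at least 1 alternative, ADAM19 from -0.35 and MMP8 from -1.66 among them. Log2 fold changes with 1 sow left out ran from -0.32 to 0.15 for MMP2, -0.29 to 0.27 for MMP7, -2.78 to 0.067 for MMP8, -0.20 to 0.13 for MMP11, -0.28 to 0.054 for ADAMTS1, -0.59 to 0.44 for ADAMTS4, -0.43 to 0.26 for ADAMTS5 and -0.10 to 0.36 for ADAMTS12. They ran from -0.85 to 0.19 for TIMP3, -0.029 to 0.45 for PLAU, -0.29 to 0.16 for PLAT, -0.50 to 0.44 for SERPINE2, -0.54 to 0.27 for LOXL2 and -0.11 to 0.080 for CTSS. Without both low 2 and low 3 the values that turned were 0.29 for MMP2, 0.23 for MMP7, 0.13 for MMP19, 0.0048 for MMP14, -0.0086 for MMP24, 0.71 for ADAMTS5, 0.12 for ADAM12, 0.10 for ADAM19, 0.35 for PLAT, 0.80 for SERPINE2 and -0.11 for CTSS. With parity as a covariate they were 0.061 for MMP2, 0.091 for MMP7, 0.18 for ADAMTS5, -0.050 for ADAMTS12, 0.20 for SERPINE2 and -0.033 for CTSS. MMP7 was 0.014 with library weights and MMP16 0.012 with quantile normalization. The high minus low log2 ratios ran from -0.51 to 0.93 for ADAMTS5/TIMP3, -0.55 to 0.47 for ADAMTS4/TIMP3 and -0.29 to 0.32 for PLAT/SERPINE2 with 1 sow left out, and without both low 2 and low 3 PLAU/SERPINE2 was -0.11 and PLAT/SERPINE2 -0.45. The cause was not tested in any of these. Depth is not known from the deposited values, so how far it limits the low genes MMP1, MMP27, SERPINB2 and LOXL4 cannot be given.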
